A study of Mus musculus with 33 samples.

Results

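The genes described here write, erase or read methyl groups on cytosine in DNA: Dnmt1, Dnmt3a, Tet1, Tet2, Tet3, Mbd1, Mbd2, Mbd3 and Uhrf2. They were taken from a list of gene symbols and make up 9 of the 21565 genes in the table. All 9 exceeded a CPM (read counts scaled to library size) of 1 in each of the 33 libraries. RNA was sequenced from the frontal cortex of adult male mice on a C57BL/6J background, 1 library per mouse. Of these, 20 were Wild-type (WT) mice that slept ad libitum (control sleep, CS, n = 6), were sleep deprived for 6 hr on a slowly moving treadmill (SD, n = 7) or had 2 hr of recovery sleep after a shorter deprivation than that of the SD group (RS, n = 7). A further 7 mice were Mef2cf/f (f/f, 4 CS and 3 SD), in which loxP sites flank an exon that codes for part of the DNA-binding domain of the transcription factor Mef2c. The remaining 6 were Mef2cCKO (cKO, 3 CS and 3 SD), which carry the same floxed alleles and a Cre driven by the Camk2a promoter, active in excitatory neurons of the forebrain. The f/f mice therefore carry the floxed allele without Cre, and the study's methods state that some cKO mice had recombination in the germline as well.

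DNA methylation is copied to the new strand after replication by Dnmt1 and laid down on unmethylated DNA by Dnmt3a, which in postnatal neurons also methylates cytosines outside CG pairs. The Tet dioxygenases oxidise 5-methylcytosine to 5-hydroxymethylcytosine and further products that base excision repair can replace with cytosine. Readers of the Mbd family bind methylated CG pairs and bring in repressor complexes such as NuRD, and neurons are known for high levels of both methylated and hydroxymethylated cytosine.

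Library depth and composition were examined first, since they bear on each value. Total reads recovered from the CPM table ranged from 18935045 to 249046089 per library, and the least abundant value of any of the 9 genes was 372 reads, for Mbd3 in a WT CS library. CPM were divided by a median-of-ratios factor per library and are called rescaled CPM. Markers of excitatory neurons were present in all libraries, with a summed rescaled CPM of 1255 to 2463 over 5 genes. Library 8 of cKO CS stood apart, with a summed astrocyte marker level of 2340 against 479 to 1042 in the other 32 libraries, and the highest microglial sum, 345. Mef2c itself was not lower in cKO than in f/f mice (log2 fold change 0.27 ± 0.20 (SE) in CS and 0.05 ± 0.13 in SD), but reads from exons that are not deleted count toward the gene, so its level does not check the label. In WT mice, Mef2c was lower in SD than in CS by a log2 fold change of -0.80 ± 0.13 (adjusted p = 0.00109). Adjusted p-values below are from limma with Benjamini-Hochberg adjustment over all genes tested. A differentially expressed gene (DEG) had an adjusted p no higher than 0.05 and a log2 fold change of 0.3 or more in either direction. The p-values measure the spread between separately labelled samples.

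To place the genes on a common scale, rescaled CPM were divided by the annotated exon length in kb. In WT CS, the reader Mbd2 was the highest at 21.8 ± 2.94 rescaled CPM per kb (SD, n = 6), followed by Uhrf2 at 11.4 ± 1.46 and Dnmt1 at 8.61 ± 0.583. The libraries of these 3 genes did not overlap one another, with Uhrf2 from 10.03 to 14.1 and Dnmt1 from 7.68 to 9.40 rescaled CPM per kb. Dnmt3a at 6.46 ± 1.11, Tet2 at 6.17 ± 0.980 and Mbd3 at 6.14 ± 1.52 rescaled CPM per kb overlapped in their ranges and could not be ordered, and the Dnmt1 range overlapped those of Tet2 and Mbd3. Mbd1 followed at 5.02 ± 0.572, Tet3 at 4.02 ± 0.841 and Tet1, the lowest, at 2.09 ± 0.484 rescaled CPM per kb. The range of Mbd1 overlapped those of Tet3, Tet2, Mbd3 and Dnmt3a, while each Tet1 library (1.52 to 2.73) was below each Tet3 library (2.81 to 5.13) in this group. Annotated exon length counts the exons of every isoform, whether used in cortex or not. For comparison, the other maintenance and de novo factors were scarce in WT CS, with Uhrf1, the partner of Dnmt1, at a mean of 0.112 and Dnmt3b at 0.178 rescaled CPM per kb.

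**Figure D1:**
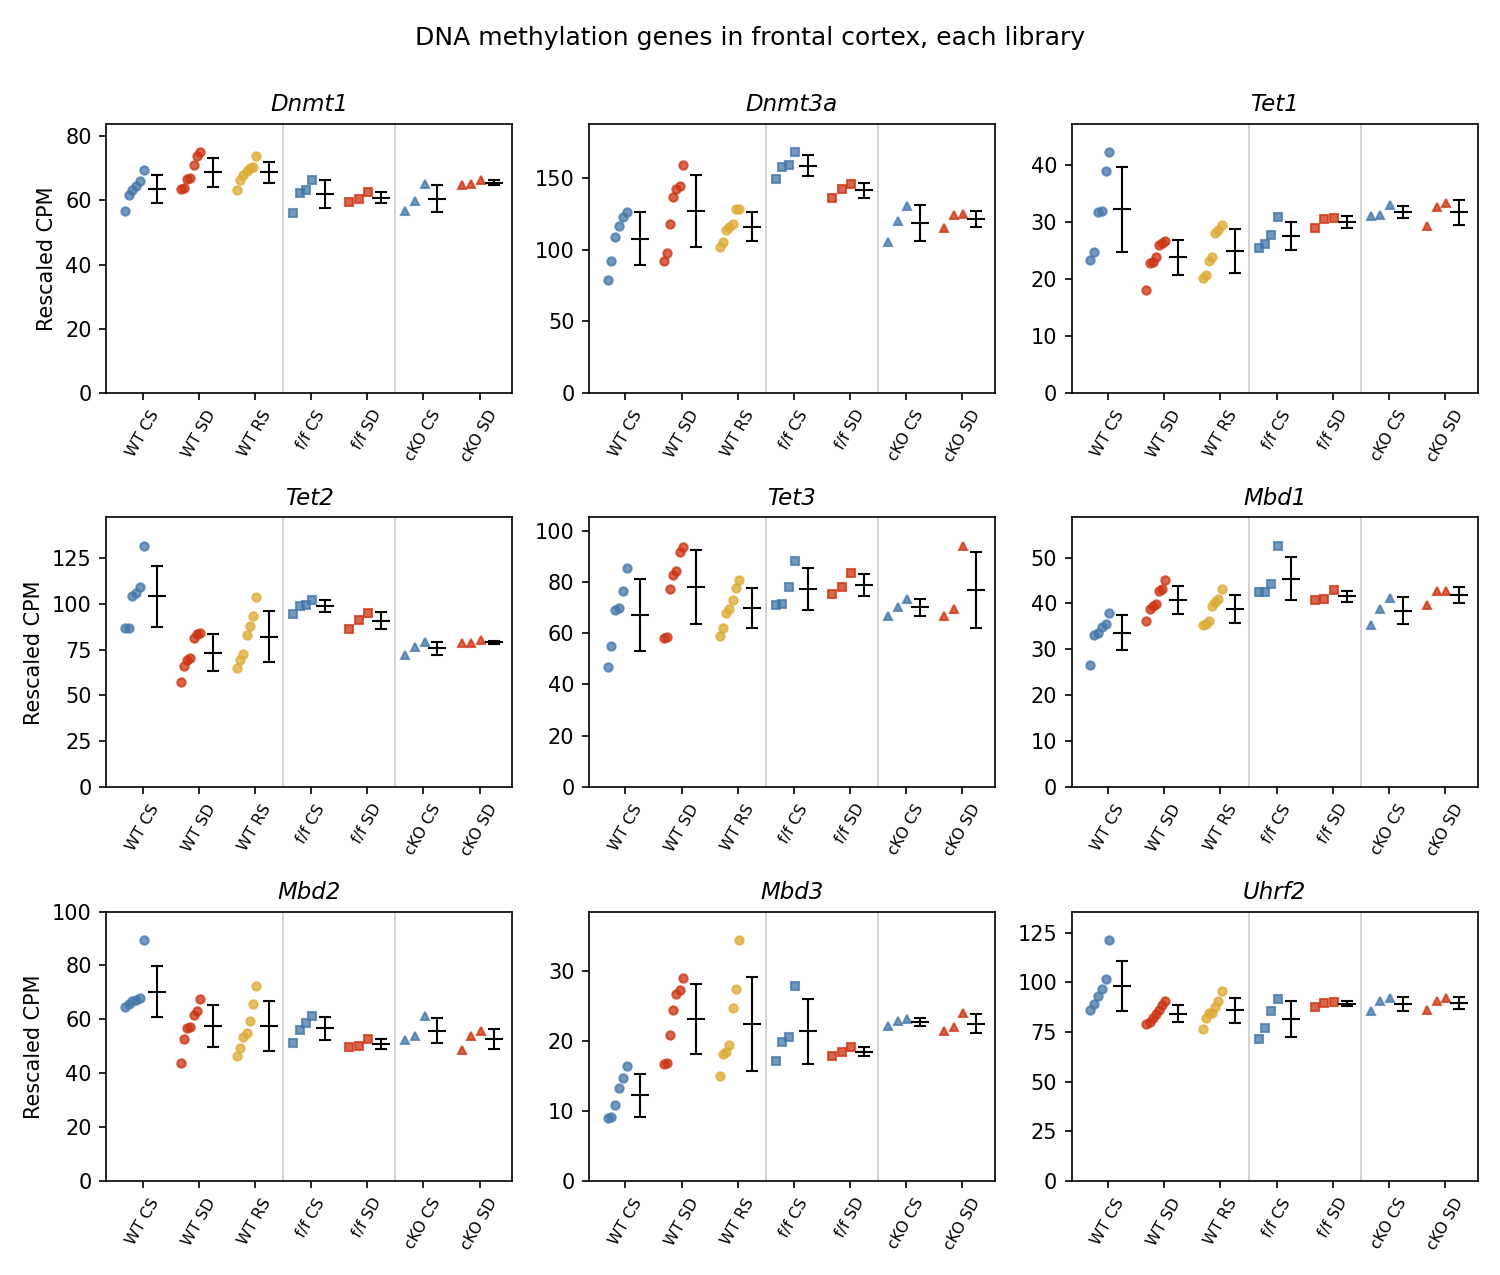
Rescaled CPM (y axis, linear, from 0) of each of the 9 genes in every library of the 7 groups (x axis); circles are WT, squares f/f and triangles cKO libraries, sorted by value within a group, and the black bar and whiskers are the group mean and SD. Mbd3 lies between 8.98 and 16.3 in WT CS and between 16.7 and 29.0 in WT SD.

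Promoters are shown for Tet2 and Dnmt3a, the DEGs between cKO and f/f mice in CS, and for Mbd3, the DEG with the largest change in WT mice. Each is the 250 bases before the RefSeq transcription start (GRCm38.p6), written 5′ to 3′ on the strand of the gene, with each CG pair, the target of the enzymes described here, in capitals. The Tet2 window is chr3:133544391-133544640, minus strand, the Dnmt3a window chr12:3806730-3806979, plus strand, and the Mbd3 window chr10:80399532-80399781, minus strand.
Tet2: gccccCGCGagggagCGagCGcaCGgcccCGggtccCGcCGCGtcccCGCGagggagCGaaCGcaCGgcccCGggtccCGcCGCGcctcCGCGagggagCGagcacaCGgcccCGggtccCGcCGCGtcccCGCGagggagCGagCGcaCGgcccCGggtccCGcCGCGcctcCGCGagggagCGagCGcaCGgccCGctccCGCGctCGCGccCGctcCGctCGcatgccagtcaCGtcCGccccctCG
Dnmt3a: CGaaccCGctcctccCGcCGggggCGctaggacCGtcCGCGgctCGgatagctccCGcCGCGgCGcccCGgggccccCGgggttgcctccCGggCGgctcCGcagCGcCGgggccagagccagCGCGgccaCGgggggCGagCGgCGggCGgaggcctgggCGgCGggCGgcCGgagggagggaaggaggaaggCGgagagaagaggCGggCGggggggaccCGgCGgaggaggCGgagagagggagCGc
Mbd3: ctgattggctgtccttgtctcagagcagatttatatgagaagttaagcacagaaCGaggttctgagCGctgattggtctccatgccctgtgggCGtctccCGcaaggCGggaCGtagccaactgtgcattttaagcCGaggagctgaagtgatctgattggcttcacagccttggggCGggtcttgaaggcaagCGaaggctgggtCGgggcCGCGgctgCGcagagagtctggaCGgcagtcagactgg

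The Tet2 window held 51 CG pairs, a number reached by 0.067% of the 32851 RefSeq promoter windows of the same length, and the Dnmt3a window held 38, reached by 1.88%. The Mbd3 window held 14 CG pairs, reached by 29.4% of windows, against a median of 6. The MEF2 site, searched by its consensus on both strands, was not found in any of the 11 windows of 7 genes (Mbd1 and Mbd2 were not analysed here), and 2.92% of all windows held it. The cAMP response element TGACGTCA was likewise not found in these 11 windows and was held by 1.55% of all windows. The E-box CACGTG was found in 1 of them, a downstream Dnmt3a promoter, and in 6.02% of all windows. These are matches of letters within 250 bases and say nothing of binding elsewhere.

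The genes lie on 7 chromosomes of the mouse genome (GRCm38, the assembly called mm10 by the submitters, with GENCODE M21 gene models). Dnmt1 is at chr9:20907209-20959888 on the minus strand, Dnmt3a at chr12:3806007-3914443 on the plus strand and Uhrf2 at chr19:30030513-30093722 on the plus strand. Tet1 is at chr10:62804570-62908996, Tet2 at chr3:133463679-133545139 and Tet3 at chr6:83362373-83459084, all on the minus strand. Mbd3 is at chr10:80392539-80399550 on the minus strand, and Mbd1 (chr18:74267605-74282732) and Mbd2 (chr18:70568189-70626131) share chromosome 18 on the plus strand. Exons of other annotated genes cover 0.799% of the exon length of Dnmt3a (133 bases, Dnmt3aos, antisense) and 0.255% of that of Tet2 (43 bases, Gm42567, antisense), and none was found for the other 7 genes.

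To evaluate the effect of sleep loss, WT SD was compared with WT CS. Of the 9 genes, Mbd3 rose and Tet1 and Tet2 fell, that is 3 DEGs where 45.1% of the 12913 genes tested were DEGs (24.6% higher and 20.5% lower in SD). The share of DEGs among these genes was therefore not above that of the table. The 2 DNA methyltransferases and Tet3 were not DEGs. The median log2 fold change of the 9 genes was 0.11 and that of all genes tested 0.04.

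Among the writers, Dnmt1 measured 56.7, 63.8 and 69.3 rescaled CPM in WT CS (lowest, median and highest library) and 63.7, 67.0 and 74.9 in WT SD. Its log2 fold change was 0.11 (95% CI -0.04 to 0.26, adjusted p = 0.188). Dnmt3a measured 79.1, 113 and 127 rescaled CPM in CS and 92.1, 137 and 159 in SD, with a log2 fold change of 0.23 (95% CI -0.08 to 0.54, adjusted p = 0.185). For both genes the CS and SD libraries overlapped, and for Dnmt3a the interval reaches past the fold threshold, so a change of that size was not excluded. Uhrf2, a RING finger protein related to Uhrf1 that binds hydroxymethylated DNA, measured 86.2, 94.8 and 121 in CS and 78.9, 83.8 and 90.6 in SD. Its log2 fold change of -0.21 ± 0.08 (SE) had an adjusted p of 0.0440 and did not reach the fold threshold.

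Among the erasers, Tet2 measured 86.6, 105 and 131 rescaled CPM in WT CS and 57.4, 70.4 and 84.2 in WT SD, with every SD library below every CS library. Its log2 fold change was -0.50 ± 0.12 (SE, adjusted p = 0.00469), a level in SD of 0.707 times that in CS. Tet1 measured 23.4, 31.9 and 42.3 rescaled CPM in CS and 18.1, 23.8 and 26.7 in SD. The 2 groups of Tet1 libraries overlapped, and its log2 fold change was -0.41 ± 0.14 (adjusted p = 0.0262). Tet3, the third Tet enzyme, measured 47.0, 69.4 and 85.6 in CS and 58.2, 82.6 and 93.8 in SD (log2 fold change 0.22, 95% CI -0.10 to 0.54, adjusted p = 0.227). As a share of the summed Tet1, Tet2 and Tet3 level per kb, Tet2 made up 50.1 ± 4.72% (SD, n = 6) in CS and 41.2 ± 3.68% (n = 7) in SD. Tet3 made up 33.04 ± 7.55% in CS and 44.1 ± 4.56% in SD. Within a library, a ratio that does not depend on the scaling between libraries, Tet3 to Tet2 was 0.668 ± 0.200 in CS, 1.07 ± 0.184 in SD and 0.863 ± 0.0987 in RS.

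Among the readers, Mbd3, a NuRD subunit that in mammals binds methylated DNA poorly, measured 8.98, 12.03 and 16.3 rescaled CPM in WT CS and 16.7, 24.4 and 29.0 in WT SD. Every SD library was above every CS library, and the log2 fold change was 0.90 ± 0.17 (SE, adjusted p = 0.00182), a 1.86-fold rise. Tet2 and Mbd3 were the 2 genes whose CS and SD libraries did not overlap, where 15.1% of all genes tested did not. Mbd2, the methyl-CG reader that can take the place of Mbd3 in NuRD, measured 64.4, 67.0 and 89.3 in CS and 43.9, 57.1 and 67.5 in SD. Its log2 fold change of -0.29 ± 0.11 passed on adjusted p (0.0341) and missed the fold threshold. Mbd1, which binds both methylated and, through a CXXC domain, unmethylated CG pairs, measured 26.6, 34.2 and 38.0 in CS and 36.2, 39.8 and 45.0 in SD. Its log2 fold change of 0.28 ± 0.09 likewise passed on adjusted p (0.0186) and missed the fold threshold. The ratio of Mbd3 to Mbd2 within a library was 0.178 ± 0.0553 in CS and 0.416 ± 0.142 in SD.

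**Figure D2:**
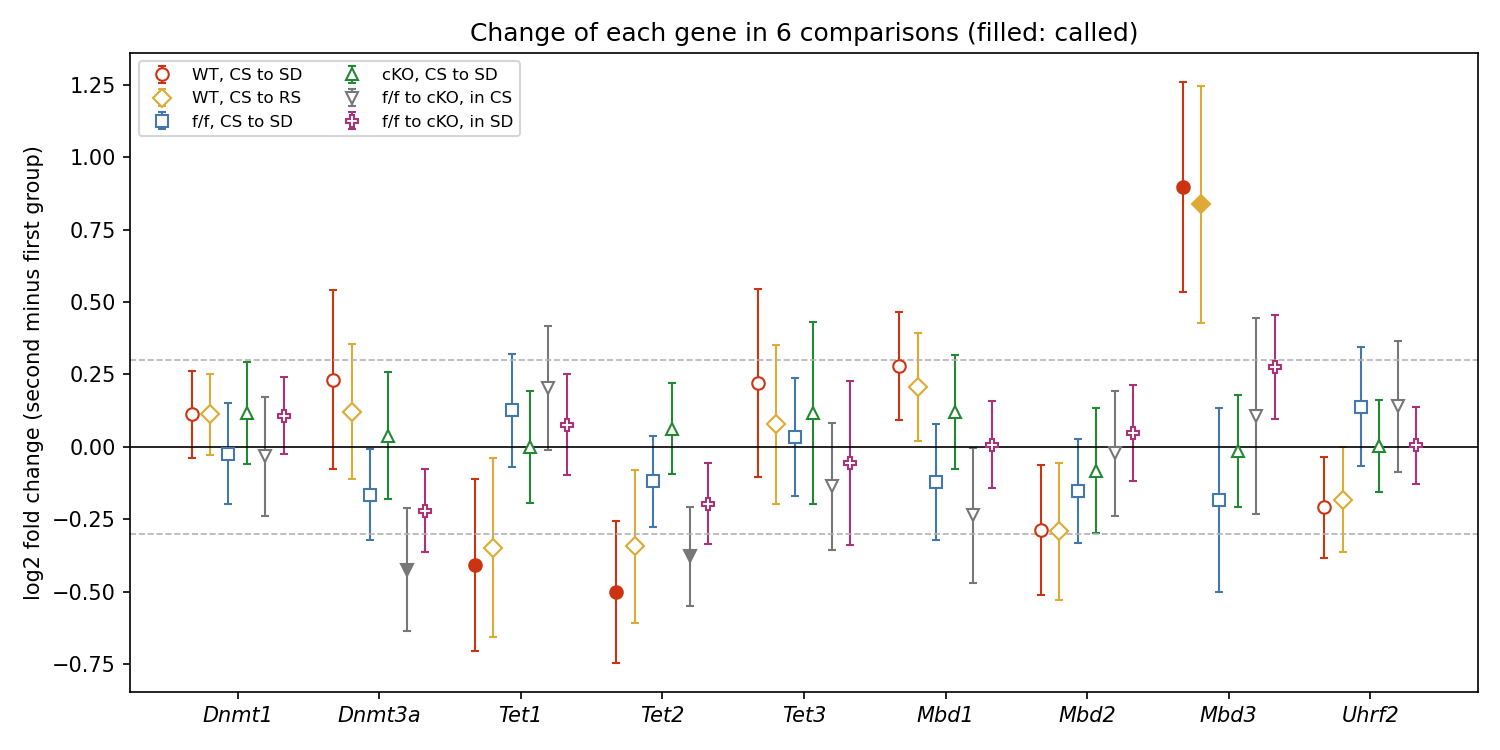
Log2 fold change (y axis) of each gene (x axis) in 6 comparisons, with 95% confidence intervals from limma; filled symbols are DEGs and dashed lines mark the fold threshold of 0.3. Mbd3 is at 0.90 and 0.84 in the WT comparisons and at -0.18 in f/f and -0.01 in cKO mice.

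The WT calls moved with base composition. Over the 12443 genes with a matched transcript, Spearman's rho between the CS to SD log2 fold change and the GC content of the longest transcript was 0.72, across genes that share libraries. Mbd3 has the highest GC content of the 9 genes, 62.9% (percentile 99.2 of genes), and Tet1 and Tet2 the lowest, 43.7% and 45.4%. When the dependence of each library on GC content and on transcript length was removed, Mbd3 was at 0.20 (adjusted p = 0.424), Tet2 at -0.20 (adjusted p = 0.0358, under the fold threshold) and Tet1 at 0.02 (adjusted p = 0.871). None of the 3 remained a DEG. Mbd2, with a GC content of 56.5%, moved further down and was then a DEG at -0.72 (adjusted p = 0.0113). The ratios within a library and the family shares join genes of unlike GC content, such as Tet3 (53.4%) and Tet2. They were not corrected for this trend. On CPM as deposited, without rescaling, the log2 fold change of the median gene was 0.30 and the DEGs were Dnmt1, Dnmt3a, Tet3, Mbd1 and Mbd3, 5 higher and 0 lower, against 1 higher and 2 lower after rescaling. Mbd3 was therefore higher in SD under both scalings, and Tet1 (-0.14) and Tet2 (-0.23) were lower without passing.

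**Figure D3:**
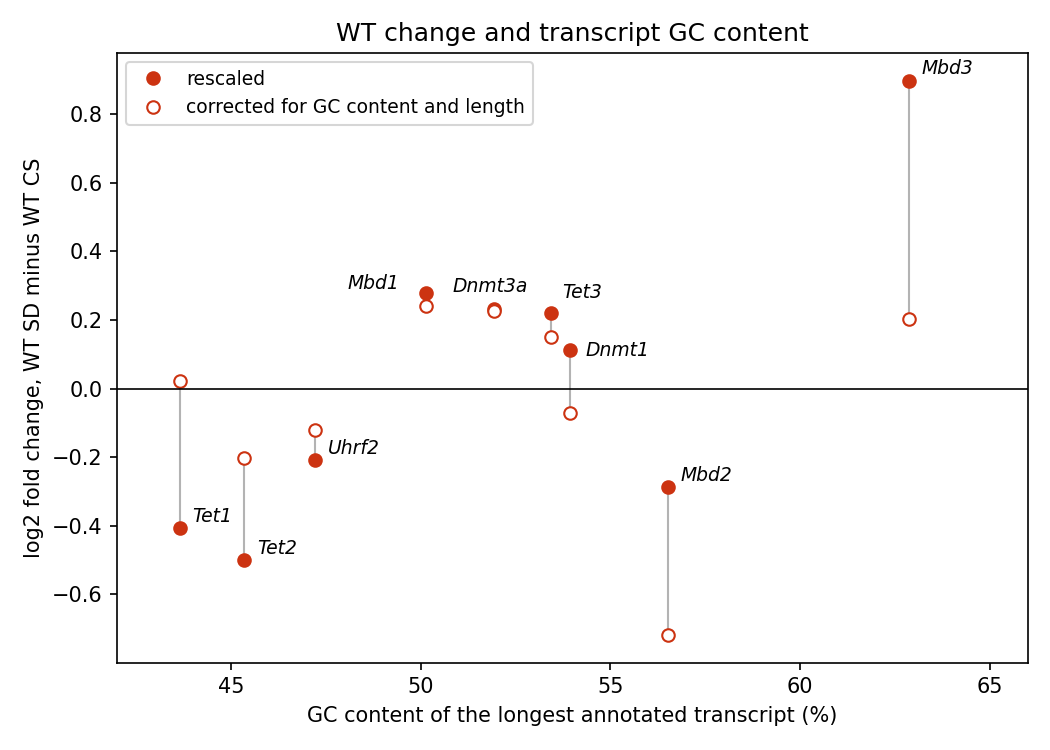
GC content of the longest annotated transcript (x axis, %) against the WT CS to SD log2 fold change (y axis) of the 9 genes; filled circles are rescaled values, open circles values corrected for GC content and length, and a line joins the 2 values of a gene. Mbd3 moves from 0.90 to 0.20 and Mbd2 from -0.29 to -0.72.

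Markers of other tissues moved in the same comparison. All 4 blood markers rose, with summed rescaled CPM of 25.6 to 109 in CS and 89.1 to 263 in SD, and 3 of 5 meningeal fibroblast markers rose (8.82 to 38.7 in CS and 44.5 to 72.2 in SD). Of the oligodendrocyte precursor markers 2 of 3 rose, with summed levels of 65.3 to 81.9 in CS and 88.7 to 109.6 in SD that did not overlap, and 2 of 5 inhibitory neuron and 2 of 5 astrocyte markers rose. The astrocyte sum had a median of 725 in CS (479 to 1042) and 627 in SD (581 to 808). In each of the excitatory neuron, microglial and endothelial lists 1 marker rose and 1 fell. The oligodendrocyte sum had a median of 2170 in CS (1708 to 2445) and 1909 in SD (1491 to 2201). Medians in CS and SD were 139 and 132 for pericyte and smooth muscle markers and 286 and 281 for striatal markers, with overlapping ranges. Of all genes, 24.6% were higher and 20.5% lower. None of these markers was at 0 in all libraries of a group. Their part in the changes of Mbd3, Tet1 and Tet2, and that of base composition, was not tested, and in bulk tissue fewer cells of a type and less RNA per cell cannot be told apart.

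Partners of these genes were read from a list of 41 genes, of which 39 were tested in WT CS to SD, with 10 higher and 4 lower DEGs and a median log2 fold change of 0.07. These counts are to be read against the 24.6% of all genes that were higher and the 20.5% that were lower, and nothing particular to the partners was tested. Of 12 NuRD subunits, Chd3 (0.48 ± 0.14, SE, adjusted p = 0.0131), Mta1 (0.37 ± 0.13), Mta2 (0.42 ± 0.10) and Rbbp4 (0.32 ± 0.13) rose and none fell, with a median of 0.15. Chd3 is a helicase of the complex and Rbbp4 a histone chaperone. Of 11 base excision and demethylation partners, 5 rose and 1 fell. The rising genes included Gadd45b (1.33 ± 0.33, adjusted p = 0.00732) and Gadd45g (1.19 ± 0.22, adjusted p = 0.00146), activity-induced genes linked to DNA demethylation. In the same list the CXXC factors parted, with Cxxc5 higher (0.44 ± 0.10) and Cxxc4, whose protein binds Tet2, lower (-0.46 ± 0.12). Of 6 other readers, Mbd6 rose (0.54 ± 0.21) and Mbd5 fell (-0.74 ± 0.12, adjusted p = 0.000784). Hells (-0.68 ± 0.14) and Trdmt1 (-0.45 ± 0.09), a chromatin remodeller needed for methylation and an RNA methyltransferase, fell among 3 tested writers and cofactors. None of the 7 genes of the methyl donor cycle was a DEG.

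After recovery sleep, compared with the same CS libraries, Mbd3 was the single DEG by limma, 1 of 9 genes where 17.5% of 12752 genes were (9.28% higher and 8.22% lower). Mbd3 measured 14.99, 19.4 and 34.3 rescaled CPM in RS, above CS with a log2 fold change of 0.84 ± 0.19 (adjusted p = 0.0329), and 1 or more RS libraries overlapped CS. Tet1 measured 20.1, 23.9 and 29.5 rescaled CPM in RS, at -0.35 (adjusted p = 0.0799). Tet2 measured 64.9, 83.1 and 104 in RS, at -0.34 (adjusted p = 0.0578). Both were DEGs by DESeq2 on recovered reads (adjusted p = 0.0483 for Tet1 and 0.0359 for Tet2) and when the 3 WT groups shared one limma fit, and neither was by edgeR. The CS to RS and CS to SD comparisons share the CS libraries, and for the other 6 genes the RS values were 0.11 for Dnmt1, 0.12 for Dnmt3a, 0.08 for Tet3, 0.21 for Mbd1, -0.29 for Mbd2 and -0.18 for Uhrf2, none past the adjusted p threshold. No gene had RS and CS libraries that did not overlap (3.72% of all genes). The Mbd3 call was lost without any 1 of WT RS libraries 3, 4, 5, 6 and 12 or WT CS libraries 2 and 3 (adjusted p up to 0.0749), and after correction for GC content and length it stood at 0.24 (adjusted p = 0.394). Of the 4 blood markers 2 were higher in RS than in CS, as were 2 of 3 oligodendrocyte precursor and 2 of 5 inhibitory neuron markers, and Spearman's rho with GC content was 0.71 over 12282 genes. The astrocyte list held 1 higher marker, and the excitatory neuron and endothelial lists held 1 lower marker each.

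Between SD and RS, 0 of the 9 genes were DEGs by limma, edgeR or DESeq2, and 0 had an unadjusted p under 0.05. The log2 fold changes lay between -0.14 (Tet3) and 0.16 (Tet2), with adjusted p of at least 0.986. In all, 0.0232% of 12921 genes were DEGs by limma and by edgeR and 0.418% by DESeq2. Libraries did not overlap for 0.163% of genes, none of them among the 9.

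In f/f mice, 0 of the 9 genes were DEGs between CS and SD by limma, edgeR or DESeq2. Of 12410 genes tested, 0.0403% were DEGs by limma, 0.0725% by edgeR and 3.76% by DESeq2. One gene, Dnmt3a, had an unadjusted p under 0.05. Its 4 CS libraries measured 158, 150, 168 and 159 rescaled CPM and its 3 SD libraries 142, 146 and 136, which did not overlap (as for 17.4% of all genes), with a log2 fold change of -0.17 ± 0.07 (adjusted p = 0.278). Mbd3 measured 17.1, 20.5, 19.9 and 27.8 rescaled CPM in CS and 18.4, 19.1 and 17.8 in SD, at -0.18 (95% CI -0.50 to 0.14). Tet2 measured 98.6, 94.4, 102 and 99.4 in CS and 95.1, 91.2 and 86.1 in SD, at -0.12 (95% CI -0.28 to 0.04). The Mbd3 interval in f/f mice lies below the WT change, whose lower bound was 0.54.

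The difference between the f/f and the WT response was tested as an interaction. It was called for 1 of the 9 genes, Mbd3 (-1.08 ± 0.27, SE, adjusted p = 0.0231), where 15.1% of 13106 genes were called. The next smallest adjusted p-values were 0.0510 for Mbd1 (-0.40), 0.0656 for Uhrf2 (0.35), 0.0717 for Tet1 (0.53) and 0.101 for Tet2 (0.38). The f/f CS level of Mbd3, 21.3 ± 4.57 rescaled CPM (SD, n = 4), was near that of WT SD, 23.1 ± 5.03 (n = 7), and above that of WT CS, 12.2 ± 3.02 (n = 6). Genotype, cohort and the way each was processed cannot be told apart here. The interaction also moved with GC content (rho -0.76 over 12632 genes) and was -0.35 for Mbd3 after the correction (adjusted p = 0.468). It was also lost without any 1 of f/f CS libraries 2 and 4 or f/f SD libraries 1 and 3 (adjusted p up to 0.0922). All 4 blood markers (median -2.81) and 2 of 5 meningeal fibroblast markers (median -1.11) were called lower in the same interaction, and their part in the Mbd3 value was not tested. In f/f mice the blood markers were at a median of -0.97 between CS and SD.

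In cKO mice, 0 of the 9 genes were DEGs between CS and SD by limma, edgeR or DESeq2, and 0 had an unadjusted p under 0.05. Of 12810 genes tested, 0.0234% were DEGs by limma and by edgeR and 0.195% by DESeq2. The log2 fold changes lay between -0.08 (Mbd2) and 0.12 (Mbd1). Mbd3 measured 22.8, 22.0 and 23.1 rescaled CPM in CS and 21.9, 21.4 and 24.0 in SD, and Tet2 measured 79.1, 76.3 and 72.0 in CS and 78.6, 80.1 and 78.7 in SD. No gene had CS and SD libraries that did not overlap, as 9.05% of all genes did. The interaction of genotype with SD, cKO against f/f, was called for 0 of the 9 genes by limma, edgeR or DESeq2. Of the 9, 0 had an unadjusted p under 0.05, and the largest value was 0.24, for Mbd1. Of 12860 genes tested, 0.00778% were called by limma and by edgeR and 0.459% by DESeq2.

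To evaluate the effect of Mef2c loss, cKO mice were compared with f/f mice within each sleep condition. No group carried Cre alone, so the loss of Mef2c and the presence of Cre cannot be told apart. In CS, the writer Dnmt3a and the eraser Tet2 were lower in cKO, that is 2 of 9 genes where 7.67% of 12681 genes were DEGs (3.17% higher and 4.5% lower). Dnmt3a measured 158, 150, 168 and 159 rescaled CPM in the 4 f/f CS libraries and 130, 120 and 105 in the 3 cKO CS libraries. The log2 fold change was -0.42 ± 0.09 (SE, adjusted p = 0.0314), a level in cKO of 0.745 times that in f/f. Tet2 measured 98.6, 94.4, 102 and 99.4 in f/f and 79.1, 76.3 and 72.0 in cKO, at -0.38 ± 0.08 (adjusted p = 0.0232). Every cKO library was below every f/f library for both genes. Mbd1 (-0.24, adjusted p = 0.173) also did not overlap, lower in cKO, and Tet1 (0.20, adjusted p = 0.195) did not overlap, higher in cKO, which makes 4 of 9 genes against 26.9% of all genes. Dnmt1 (-0.03), Tet3 (-0.14), Mbd2 (-0.02), Mbd3 (0.11) and Uhrf2 (0.14) had 95% intervals that included 0. In WT CS, Dnmt3a was at 108 ± 18.5 rescaled CPM (SD, n = 6), nearer to the cKO CS mean (118) than to that of f/f CS (158). Tet2 in WT CS was at 104 ± 16.5, nearer to the f/f CS mean (98.7) than to that of cKO CS (75.8). Genotype and cohort cannot be told apart in comparisons with WT.

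The lowest Dnmt3a and Tet2 values of the cKO CS group were both in library 8, the library with the highest astrocyte marker sum. Without it the log2 fold changes were -0.34 for Dnmt3a (adjusted p = 0.0741) and -0.34 for Tet2 (adjusted p = 0.0620). Both calls were also lost without cKO CS library 7, f/f CS library 2 or f/f CS library 3, and that of Dnmt3a without f/f CS library 4, with adjusted p from 0.0531 to 0.0949. On CPM as deposited, Dnmt3a was at -0.32 (adjusted p = 0.0718) and Tet2 at -0.27 (adjusted p = 0.0705). After correction for GC content and length, Dnmt3a was at -0.31 (adjusted p = 0.0860) and Tet2 at -0.29 (adjusted p = 0.0456, under the fold threshold), and Tet1 was a DEG, higher at 0.30 (adjusted p = 0.0439). With quantile normalization Dnmt3a missed the threshold (adjusted p = 0.0531). Of the 5 astrocyte markers 1 was a DEG, higher in cKO, with summed levels of 545 to 595 in f/f CS and 715 to 2340 in cKO CS. The meningeal markers (2 of 5 higher) summed to 25.2 to 29.9 in f/f CS and 36.1 to 40.8 in cKO CS, the blood markers (1 of 4 lower) to 108.1 to 165 and 9.67 to 101, and the microglial markers, with no DEG by limma, had a median log2 fold change of 0.70. The part of these cells' RNA in the Dnmt3a and Tet2 changes was not tested.

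In SD, 0 of the 9 genes were DEGs between cKO and f/f mice by limma, edgeR or DESeq2. Of 12774 genes tested, 15.1% were DEGs by limma, 15.2% by edgeR and 17.9% by DESeq2. Of the 9 genes, 3 had an unadjusted p under 0.05. Dnmt3a measured 142, 146 and 136 rescaled CPM in f/f and 115, 124 and 125 in cKO, at -0.22 ± 0.06 (SE, adjusted p = 0.0457), under the fold threshold. Tet2 measured 95.1, 91.2 and 86.1 in f/f and 78.6, 80.1 and 78.7 in cKO, at -0.20 ± 0.06 (adjusted p = 0.0613). Mbd3 was at 0.27 ± 0.08 (adjusted p = 0.0453), also under the fold threshold. Dnmt3a and Tet2 (lower in cKO) and Dnmt1 and Mbd3 (higher in cKO) were the 4 genes whose libraries did not overlap, against 40.3% of all genes. In the same comparison 3 of 5 microglial, 2 of 5 astrocyte and 3 of 5 inhibitory neuron markers were higher in cKO, 1 inhibitory and 2 of 5 excitatory neuron markers were lower, and their part was not tested. Among the listed partners, Chd3 (0.41 ± 0.09) and the methyl donor gene Ahcy (0.39 ± 0.10) were higher in cKO SD and Gatad2b, Mbd4 and Cxxc4 were lower, 2 and 3 DEGs of 40 tested. In CS, Idh1 (0.47 ± 0.10) was the single DEG of 40.

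The mean Dnmt3a to Dnmt1 ratio within a library was higher in f/f than in cKO or WT mice. It was 2.57 ± 0.222 (SD, n = 4) in f/f CS and 2.32 ± 0.0753 (n = 3) in f/f SD, against 1.97 ± 0.343 (n = 3) in cKO CS and 1.85 ± 0.0692 (n = 3) in cKO SD. The lowest f/f ratio was 2.25 and the highest cKO ratio 2.30, so the genotypes overlapped by that 1 cKO CS library. In WT mice the ratio was 1.71 ± 0.352 in CS, 1.85 ± 0.372 in SD and 1.69 ± 0.195 in RS, means nearer to those of cKO than of f/f mice.

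**Figure D4:**
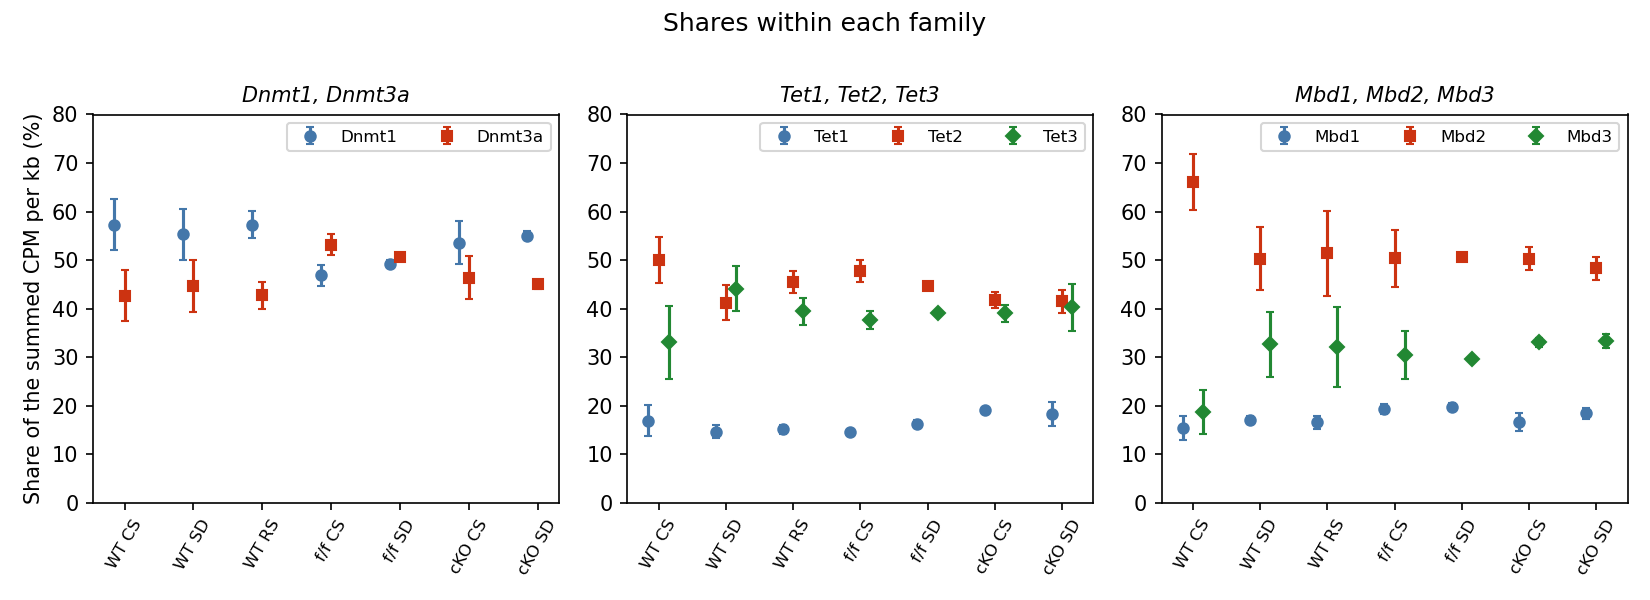
Share (y axis, %, mean and SD over libraries) of each gene in the summed rescaled CPM per kb of its family in the 7 groups (x axis), for the Dnmt, Tet and Mbd genes. Tet2 and Tet3 part in WT CS (50.1% and 33.04%) and are close in WT SD, and Mbd3 has its lowest share, 18.6%, in WT CS.

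The genes were also compared with one another and with other genes across libraries, as a description without a test, since libraries share groups and base composition trends. Over the 20 WT libraries, Pearson's r of log2 rescaled CPM was 0.94 between Dnmt3a and Tet3, 0.91 between Tet1 and Tet2 and -0.87 between Mbd3 and Uhrf2. Over the 13 f/f and cKO libraries the same pairs were at 0.34, -0.67 and -0.52, and the closest pair was Dnmt3a and Tet2, at 0.97, which was at -0.34 in WT. Among 11570 genes above 1 CPM in every library, those nearest in WT were Ncoa6 for Tet2 (r = 0.98, and 0.87 in the other 13 libraries), Mybbp1a for Mbd3 (0.98, and 0.68) and Smarcad1 for Uhrf2 (0.97, and 0.89). They were Kat6a for Tet1 (0.97, and -0.10), Fbrsl1 for Tet3 (0.98, and 0.44), Eml5 for Mbd2 (0.96, and 0.22), Kif1c for Mbd1 (0.96, and 0.12) and Xdh for Dnmt1 (0.83, and 0.04). The next genes could differ from the nearest in the other 13 libraries, as for Mbd1, where Ctdsp2 was at 0.95 in WT and 0.67 there, and Dnmt1, where Kank1 was at 0.83 and 0.42.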

How the data were processed

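Total RNA from frontal cortex was made into stranded mRNA libraries and sequenced in paired ends. The authors used Trimmomatic, STAR (mm10) and HTSeq on uniquely mapped reads and deposited CPM from edgeR. The gene annotation and the strand setting of the counting are not given in the sources used here. Dividing each column by its smallest value above 0 gave whole reads for 100% of 711645 values (within 0.01), and these reads gave the depths. The columns of WT libraries sum to a lower CPM (group means 959825 to 976768) than the others. The table was described as CPM, so the main test was limma 3.58.1 (lmFit, eBayes with trend, R 4.3.3) on log2(CPM / median-of-ratios factor + 0.5), so fold changes of low genes are understated. Groups compared were fitted alone, and genes needed a CPM of 1 or more in every library of a compared group. Interactions were called on adjusted p alone. The 9 genes and the partner and marker lists were chosen with earlier results of these data known. Named genes were the 9 genes, listed partners and markers, Mef2c, and the genes with the highest Pearson r to each of the 9. Gene models were GENCODE M21, with 19471 of 21565 symbols matched, and promoters came from RefSeq (GRCm38.p6). Among the listed markers, Drd1 was not matched in the table. On simulated data with 200 genes changed by a log2 of 1, 91.5% were recovered in WT CS to SD (12913 genes), 99% in f/f CS to SD (12410) and 86% in cKO CS to SD (12810). In the same order, 6, 19 and 13 unchanged genes were called. Each of the 9 genes changed by less than the simulated amount in these comparisons, and recovery of smaller changes was not tested. Alternatives were CPM as deposited, other pseudocounts (0.1 and 1), quantile normalization, no filter or CPM of at least 5, array quality weights, correction for GC content and length, edgeR 4.0.16 and DESeq2 1.42.0 on recovered reads, a fit per cohort, no fold threshold, a replicate block and each library left out. No pair of libraries held identical values.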

Additional observations from a re-analysis of the deposited data

Results flagged for a closer look

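The WT and f/f responses of Mbd3 to sleep deprivation differed by -1.08 on the log2 scale in the interaction test (f/f minus WT, adjusted p = 0.0231 from limma), with 0.90 in WT and -0.18 in f/f mice. Among the 36 combinations of gene and group with 4 to 7 libraries, 2 held a library far from the others by Dixon's criterion, and about 1 in 20 would be marked by chance. Mbd2 was 89.3 rescaled CPM in library 2 of WT CS, against 68.0 in the next library of that group. Library 2 was also the highest of WT CS for Tet1 (42.3 rescaled CPM), Tet2 (131) and Uhrf2 (121). It was the lowest of that group for Dnmt3a (79.1), Tet3 (47.0), Mbd1 (26.6) and Mbd3 (8.98), and only for Dnmt1 was it at neither end. Mbd1 was 52.4 rescaled CPM in library 4 of f/f CS, against 44.2 in the next library.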

How the results depend on the processing

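In WT CS to SD, 3 of the 9 genes were DEGs, against 5 on CPM as deposited, 1 (Mbd2) after correction for GC content and length, 6 with no fold threshold and 0 with the replicate block. Tet1 stood at 0.023 after the correction (adjusted p = 0.871 from limma). In WT CS to RS, 1 was a DEG, against 2 on CPM as deposited (Dnmt1 and Mbd3), 2 with array quality weights (Tet2 and Mbd3) and 0 after the correction. There were 3 (Tet1, Tet2 and Mbd3) with DESeq2, with all WT groups in one fit and with the replicate block. For cKO against f/f in CS, 2 were DEGs, against 0 on CPM as deposited, 1 (Tet2) with quantile normalization and 1 (Tet1) after the correction. In SD, 0 were DEGs, against 1 on CPM as deposited and 2 with no fold threshold. The interaction of f/f against WT was called for 1 gene, against 3 on CPM as deposited, 2 at a CPM of at least 5, 6 with array quality weights, 4 with DESeq2, 0 after the correction and 0 with the replicate block. The cause was not tested. Without 1 library at a time, the counts ran from 2 to 5 in WT CS to SD, 0 to 3 in WT CS to RS, 0 to 2 for cKO against f/f in CS, 0 to 1 in SD and 0 to 3 for the f/f against WT interaction. WT SD to RS, f/f CS to SD, cKO CS to SD and the cKO against f/f interaction gave 0 genes in every setting run.

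Counts over all genes also moved: DEGs in WT CS to SD were 5826, against 2539 after the correction and 287 with the replicate block, and in WT CS to RS 2232, against 632 and 4279. Of 999 values under the alternatives, 901 kept direction and side of the threshold, and 50 changed sign without being called in either setting. The array weights did not converge fully in 3 comparisons. Same-numbered libraries were not shown to be paired. The correlation of their deviations from the group means ran from -0.30 to 0.65 in WT CS and SD and from -0.73 to 0.35 in WT SD and RS. In WT CS and RS it ran from 0.05 to 0.66, all positive. What a shared number stands for is not given and was not tested. No block could be fitted between f/f and cKO mice, which share no numbers. Tet1 lost its WT CS to SD call without WT CS library 1 or 2 or WT SD library 2 (adjusted p up to 0.0620). With 3 or 4 libraries a group in f/f and cKO mice, changes within the intervals given were not excluded. The 9 genes had 372 reads or more in each library, and the effect of depth was not tested.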
